A study of Mus musculus with 15 samples.

Results

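Cytokine receptor genes were followed through the maturation of mouse CD4 thymocytes. The genes were listed by symbol: Il7r, Il2rb, Il4ra, Il21r and Il2rg of the common gamma chain family, Il6ra and Il6st of the gp130 family, Il12rb1 of the IL-12 receptor family, and the class II receptor genes Ifngr1 and Il10ra. Of the 10 listed genes, 9 had a probe set of their own among 18193 measured genes, and all 9 were among the 11871 genes tested, those above the array median in at least 3 arrays. Il2rg, the gene of the shared gamma chain, was not analysed here. Il7r rose from PreDP to PostDP and again from PostDP to SM&M1, and Ifngr1 fell at both steps. Il6ra rose from PostDP to SM&M1 in the probe set used, the brighter on average of its 2, while the other moved less.

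RNA was hybridised to Affymetrix arrays, 1 array per sample, with 3 samples in each of 5 groups (15 arrays), all from young adult mice on a C57BL/6 background. PreDP (CD69-TCRβ-) and PostDP (CD69+TCRβ+) cells are CD4 CD8 double-positive thymocytes before and after positive selection, and both came from B2m-/- mice, where selection is restricted to MHC class II. SM&M1 (Qa2-CD69+) and M2 (Qa2+CD69-) are CD4 single-positive (CD4SP) thymocytes, earlier and later, from Rag2-GFP BAC transgenic mice, sorted with a dump channel for NK1.1, CD25 and GL3. Tak1-deficient SM&M1 cells (Qa2-CD69+) came from Tak1f/f CD4Cre mice, in which Cre driven by Cd4 sequences deletes the kinase gene Map3k7 (Tak1) in T lineage cells from about the double-positive stage. Stage and mouse line change together between PostDP and SM&M1, and the Rag2-GFP reporter is named only for the Tak1-sufficient CD4SP cells, so these factors cannot be told apart. The labels call the replicates biological and do not state if each is its own animal or a pool. The p-values therefore describe the spread among these arrays, part of which may be technical.

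Cytokine receptors of these families are assembled from different chains, some of them shared between receptors. They signal through Janus kinases bound to their cytoplasmic tails, which phosphorylate STAT transcription factors. IL-7 signalling supports thymocytes before they express a T cell receptor and again after positive selection, and preselection double-positive cells are known to carry little IL-7 receptor. The gp130 chain encoded by Il6st is shared by IL-6 and its relatives, while the chain encoded by Il6ra binds IL-6 itself.

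The sequences before the start sites of Il7r and Il6ra are shown because these genes had the greatest rises of the 9. They are RefSeq sequences of build GRCm38.p6, limited to the stretch outside the annotated gene: chr15:9529942-9530126 for Il7r and chr3:89913197-89913446 for Il6ra, both on the minus strand. Capitals mark a match to TTCNNNGAA, the palindromic STAT motif.
Il7r: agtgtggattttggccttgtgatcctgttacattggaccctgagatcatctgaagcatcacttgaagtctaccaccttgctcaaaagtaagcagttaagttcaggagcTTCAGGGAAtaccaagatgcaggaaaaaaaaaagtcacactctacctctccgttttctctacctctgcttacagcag
Il6ra: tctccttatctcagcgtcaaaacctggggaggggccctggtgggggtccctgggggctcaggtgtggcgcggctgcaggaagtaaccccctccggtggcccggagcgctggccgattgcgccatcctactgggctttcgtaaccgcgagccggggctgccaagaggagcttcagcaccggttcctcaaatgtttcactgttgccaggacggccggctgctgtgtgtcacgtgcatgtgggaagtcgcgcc
The printed Il7r stretch ends where the annotated gene begins, 65 bases before the start listed in the promoter table, from which motif positions are counted. The window searched was the 250 bases before that listed start, on both strands, and 7 of the 10 genes had an entry. Il2rb, Il10ra and Il12rb1 had none. The STAT motif was found in 1 of the 7, Il7r, at -142 to -134 from its start, and in 7.02% of 32851 mouse promoters of the same length. The ETS motif CCGGAAG was found only in the window of Il2rg of these 7 (6.91% of all promoters) and the forkhead motif TGTTTAC only in that of Il21r (3.17%), at -38 to -32. The last 177 of the 250 bases of the Il21r window lie inside the annotated gene, and the forkhead match is among them. The NF-κB consensus was found in 0 of the 7 and in 3.9% of all promoters. No searched motif was found in the Il6ra window, which says only that these letters are not in it.

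Values are given as log2(signal + 16), so that the scale has a floor of 4 and folds of dim genes are understated. Map3k7 was at 10.40, 10.46 and 10.42 in the SM&M1 arrays and at 4.76, 6.07 and 5.35 in the Tak1-deficient ones. In the other groups Map3k7 lay between 9.69 and 10.44. The defining markers Cd3e and Cd4 were high in every array (at least 12.67 and 11.02), and Cd8a, which CD4SP cells should have lost, had means of 13.89 (PreDP), 7.79 (SM&M1) and 9.63 (the Tak1-deficient cells). Tak1-deficient replicate 2 differed most from its group: the median signal of its array was 167.8, against 80.5 to 121.5 for the other 14, and it correlated at 0.879 and 0.873 with its group, where every other pair within a group reached at least 0.965. Of 16 macrophage and myeloid markers, 15 were measured, and their median lay between 7.52 and 8.43 in SM&M1 replicate 1, M2 replicate 1 and Tak1-deficient replicates 2 and 3, against 5.79 to 6.68 in the other 11 arrays. Without Ctss, which was high in every CD4SP array, the summed signal of these markers was 5299 to 7087 in those 4 arrays and 555 to 1158 in the rest. No marker of the list had a signal under 16 in the 4 arrays, and 1 to 5 markers did in each of the others. Xist and the Y-linked gene Eif2s3y were both high in each SM&M1 and M2 array, and in the other groups each array was high in 1 and low in the other. Both signals in 1 sample point to cells of both sexes, and so of more than 1 animal, in SM&M1 and M2. In the Tak1-deficient replicates 1 to 3 Xist was at 7.54, 14.01 and 7.42 and Eif2s3y at 11.38, 4.33 and 11.49. Sex make-up also changed with stage and mouse line between PostDP and SM&M1, and cannot be told apart from them there. The part of sex in the Tak1 differences was not tested. Less RNA per cell and fewer cells of a kind cannot be told apart in such bulk samples.

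Il7r encodes the alpha chain of the IL-7 receptor (Entrez 16197, chromosome 15, 9506159 to 9529941, GRCm38.p6). It was at 5.35, 6.31 and 6.35 in PreDP replicates 1 to 3 and at 9.83, 10.37 and 10.56 in PostDP. It was at 13.01, 13.29 and 13.45 in SM&M1, at 12.68, 12.87 and 12.93 in M2, and at 13.35, 13.00 and 13.20 in the Tak1-deficient cells. PreDP arrays were low, PostDP arrays intermediate and all CD4SP arrays high, with no overlap between these 3 levels. The rise from PreDP to PostDP was 4.25 ± 0.26 (SE; 19.1-fold; limma, adjusted p = 1.94e-07), and that from PostDP to SM&M1 was 2.99 ± 0.26 (7.97-fold; limma, adjusted p = 1.15e-05). All M2 arrays lay below all SM&M1 arrays, by 0.43 on average, which did not pass (limma, adjusted p = 0.734). Tak1-deficient and Tak1-sufficient SM&M1 arrays overlapped, with a difference of -0.07 and a 95% interval of -0.64 to 0.50. The other Il7r probe set gave differences of 4.12 and 3.07 at the first and second steps.

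Il2rb encodes the signalling chain shared by the IL-2 and IL-15 receptors (Entrez 16185, chromosome 15, 78479256 to 78511621). In PreDP it was near the floor at 4.30, 4.63 and 4.42, and in PostDP it was at 6.56, 7.31 and 6.88. SM&M1 arrays were at 9.23, 9.41 and 9.11, M2 arrays at 9.50, 9.41 and 9.38, and Tak1-deficient arrays at 8.21, 7.93 and 8.64. The groups did not overlap at the first step or the second, and the Tak1-deficient arrays lay between PostDP and SM&M1. Il2rb rose by 2.46 ± 0.21 from PreDP to PostDP (SE; 5.52-fold; limma, adjusted p = 4.51e-06) and by 2.33 ± 0.21 from PostDP to SM&M1 (5.03-fold; limma, adjusted p = 1.33e-05). With a pseudocount of 1 the first difference was 3.98. In Tak1-deficient SM&M1 it fell by 0.99 against SM&M1 (SE 0.21; 1.98-fold; limma, adjusted p = 0.0357; 0.0172 to 0.802 over 27 alternatives, of which 19 ended the call). The other Il2rb probe set differed, at 0.01 ± 0.44 for the first step, 1.51 ± 0.44 for the second and -0.05 ± 0.44 for Tak1 deficiency. With the mean of both probe sets the differences were 1.24, 1.92 and -0.52. Natural killer cells also express Il2rb: 11 of 12 natural killer and innate-like T cell markers were measured, and their summed signal was 4430, 831 and 804 in SM&M1 replicates 1, 2 and 3. It was 4910, 1356 and 1658 in M2, 1420, 3745 and 4537 in the Tak1-deficient cells, 3264 to 4791 in PreDP and 1502 to 1539 in PostDP. Gzma alone was at 12.08, 11.45 and 11.76 in PreDP. Of the 11 markers, those above the array median were 2 to 3 in PreDP and 4 in PostDP. They were 2 to 9 in SM&M1, 4 to 9 in M2 and 5 to 9 in the Tak1-deficient arrays. The part of natural killer or innate-like T cells in the Il2rb differences was not tested.

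Il4ra encodes the IL-4 receptor alpha chain, and Il21r the IL-21 receptor, and both lie on chromosome 7 (Entrez 16190, 125552271 to 125579474, and Entrez 60504, 125603252 to 125634397). Il4ra was at 10.72, 10.66 and 10.67 in PreDP, 10.95, 11.15 and 11.27 in PostDP, and 10.35, 10.55 and 10.45 in SM&M1. It was at 10.66, 10.93 and 10.95 in M2 and at 10.21, 10.91 and 9.98 in the Tak1-deficient cells. PostDP arrays were the highest of the first 3 groups without overlap, but no step of Il4ra passed. The differences were 0.45 from PreDP to PostDP (limma, adjusted p = 0.197), -0.68 from PostDP to SM&M1 (limma, adjusted p = 0.0508), 0.40 from SM&M1 to M2 and -0.08 with Tak1 deficiency. The first passed in 2 of 27 alternatives (limma, adjusted p from 0.0209 to 0.501), among them that without Tak1-deficient replicate 2 (0.0209). The second passed in 9 of 27 alternatives (limma, adjusted p from 0.00241 to 0.175). Among these were the fit without that array (0.00241) and the mean of the 3 probe sets of Il4ra, where it was -1.15. That array is in neither step, but all groups shared 1 estimate of the spread.

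Il21r was at 11.01, 10.85 and 10.96 in PreDP and at 10.36, 10.47 and 10.49 in PostDP. It was at 10.41, 10.22 and 10.27 in SM&M1, at 10.53, 10.43 and 10.42 in M2, and at 9.78, 9.64 and 9.57 in the Tak1-deficient cells. PreDP arrays were the highest and Tak1-deficient arrays the lowest, and neither overlapped with another group. Il21r fell by 0.50 from PreDP to PostDP (SE 0.13; 1.41-fold; limma, adjusted p = 0.0163; 0.00413 to 0.0871 over 27 alternatives). From PostDP to SM&M1 it differed by -0.14, with a 95% interval of -0.41 to 0.13. It fell by 0.63 in Tak1-deficient SM&M1 against SM&M1 (SE 0.13; 1.55-fold; limma, adjusted p = 0.0233; 0.00959 to 0.802 over 27 alternatives, of which 10 ended the call).

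**Figure D1:**
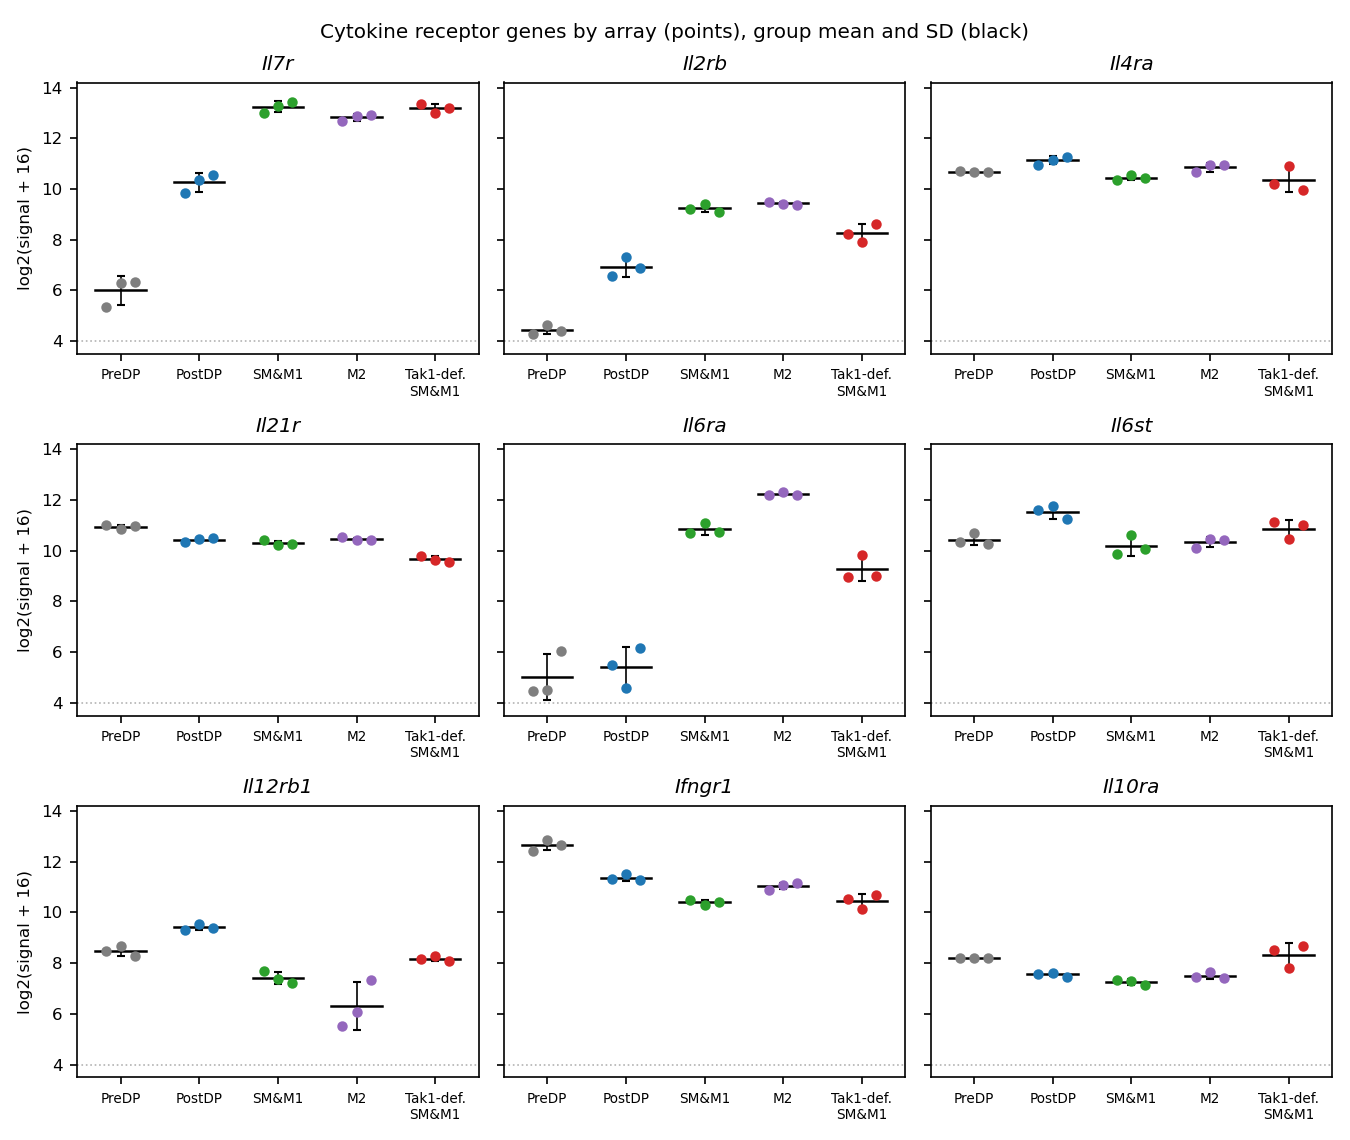
Log2(signal + 16) of the 9 measured receptor genes (vertical axis) in the 5 groups (horizontal axis); each point is 1 array, and black lines give the group mean and SD (n = 3), with the dotted line at the floor of 4. Il7r and Il2rb stepped up at PostDP and again at SM&M1, Il6ra was lowest in both double-positive groups, and Ifngr1 was highest in PreDP.

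Il6ra encodes the IL-6 binding chain (Entrez 16194, chromosome 3, 89869324 to 89913196). Double-positive arrays were the lowest, at 4.46, 4.50 and 6.06 in PreDP and at 5.48, 4.57 and 6.18 in PostDP. Il6ra was at 10.68, 11.11 and 10.73 in SM&M1, at 12.21, 12.31 and 12.20 in M2, and at 8.97, 9.82 and 9.01 in the Tak1-deficient cells. The CD4SP groups did not overlap with one another or with the double-positive groups, which overlapped. The first step gave 0.40 with a 95% interval of -0.54 to 1.35, and the second a rise of 5.43 ± 0.44 (SE; 43.0-fold; limma, adjusted p = 5.92e-06). M2 was higher than SM&M1 by 1.40 ± 0.44, which did not pass (limma, adjusted p = 0.158) but passed in the fit of these groups with the replicate number as a block (adjusted p = 0.0268) and without it (0.00665; up to 0.599 over 27 alternatives). In Tak1-deficient cells Il6ra was lower than in SM&M1 by 1.57 on average, which did not pass (limma, adjusted p = 0.0962; 0.0471 to 0.646 over 27 alternatives). It was lower than in M2 by 2.97 on average, which passed (limma, adjusted p = 0.000682). The other Il6ra probe set was brighter in double-positive cells, with means of 7.37 in PreDP and 7.48 in PostDP. It moved less, by 0.56 ± 0.59 from PostDP to SM&M1, 0.73 ± 0.59 from SM&M1 to M2, and 0.65 ± 0.59 with Tak1 deficiency, where replicate 2 was at 10.70 and the others at 7.85 and 7.53. With the mean of both probe sets the rise from PostDP to SM&M1 was 2.99 and the Tak1 difference -0.46.

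Il6st encodes gp130 (Entrez 16195, chromosome 13, 112464070 to 112506860). It was at 10.36, 10.68 and 10.26 in PreDP and at 11.61, 11.76 and 11.24 in PostDP. It was at 9.87, 10.60 and 10.07 in SM&M1, at 10.10, 10.46 and 10.44 in M2, and at 11.13, 10.47 and 11.00 in the Tak1-deficient cells. PostDP arrays were above every other array. Il6st rose by 1.10 ± 0.24 from PreDP to PostDP (SE; 2.14-fold; limma, adjusted p = 0.00600) and fell by 1.35 from PostDP to SM&M1 (SE 0.24; 2.55-fold; limma, adjusted p = 0.00224), the step at which its partner gene Il6ra rose. The Tak1-deficient arrays overlapped with SM&M1, and the difference of 0.68 did not pass (limma, adjusted p = 0.169). All 3 of its other probe sets gave a positive first difference (0.84 to 1.05). Their second differences were -0.29 ± 0.18, -1.02 ± 0.42 and -0.45 ± 0.34, and their Tak1 differences -0.05, 0.30 and -0.05. The mean of all 4 gave -0.78 for the second step. When each array was centred on its median, the first difference was 0.95 and did not pass (adjusted p = 0.110; 0.00123 to 0.11 over 27 alternatives).

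Il12rb1 encodes the chain shared by the IL-12 and IL-23 receptors (Entrez 16161, chromosome 8, 70808360 to 70823542). It was at 8.47, 8.66 and 8.27 in PreDP and at 9.32, 9.54 and 9.39 in PostDP. It was at 7.67, 7.38 and 7.20 in SM&M1, at 5.52, 6.07 and 7.35 in M2, and at 8.15, 8.29 and 8.10 in the Tak1-deficient cells. PostDP arrays were the highest without overlap, and M2 replicate 3 lay among the SM&M1 values while the other M2 arrays lay below. The first step gave 0.95 ± 0.34 and did not pass (limma, adjusted p = 0.0810); it passed in the fit of only these groups with the replicate number as a block (adjusted p = 0.00724) and without it (0.00571; 0.00446 to 0.209 over 27 alternatives), and not with the block in the fit of all groups. Il12rb1 fell by 2.0 from PostDP to SM&M1 (SE 0.34; 4.0-fold; limma, adjusted p = 0.00180). M2 differed from SM&M1 by -1.10 (limma, adjusted p = 0.148), and without M2 replicate 3 by -1.62, which passed (adjusted p = 0.00384; 0.00384 to 0.816 over 27 alternatives). Tak1-deficient arrays were all higher than SM&M1 arrays, by 0.77 on average, which did not pass (limma, adjusted p = 0.262).

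Ifngr1 encodes the ligand-binding chain of the interferon gamma receptor (Entrez 15979, chromosome 10, 19591949 to 19610229). It was at 12.43, 12.85 and 12.67 in PreDP and at 11.32, 11.52 and 11.27 in PostDP. It was at 10.49, 10.30 and 10.39 in SM&M1, at 10.89, 11.07 and 11.15 in M2, and at 10.54, 10.13 and 10.68 in the Tak1-deficient cells. PreDP arrays were the highest and SM&M1 and Tak1-deficient arrays the lowest, with M2 between SM&M1 and PostDP and no overlap between these Tak1-sufficient groups. Ifngr1 fell by 1.28 from PreDP to PostDP (SE 0.17; 2.43-fold; limma, adjusted p = 0.000207) and by 0.98 from PostDP to SM&M1 (SE 0.17; 1.97-fold; limma, adjusted p = 0.00235). With arrays centred on the median the second difference was -0.94 and did not pass (adjusted p = 0.0511; 0.00028 to 0.0511 over 27 alternatives). M2 was higher than SM&M1 by 0.65 ± 0.17, which did not pass (limma, adjusted p = 0.0827), and passed without Tak1-deficient replicate 2 (adjusted p = 0.0131; 0.0131 to 0.647 over 27 alternatives). With Tak1 deficiency the difference was 0.06, with a 95% interval of -0.31 to 0.44.

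Il10ra encodes the ligand-binding chain of the IL-10 receptor (Entrez 16154, chromosome 9, 45253837 to 45269149). It was at 8.22, 8.19 and 8.20 in PreDP, 7.58, 7.59 and 7.47 in PostDP and 7.34, 7.31 and 7.12 in SM&M1. It was at 7.47, 7.66 and 7.41 in M2 and at 8.52, 7.80 and 8.68 in the Tak1-deficient cells. Each of the first 3 groups lay below the one before it without overlap, and the Tak1-deficient arrays were above all SM&M1 and M2 arrays. Il10ra fell by 0.66 from PreDP to PostDP (SE 0.20; 1.58-fold; limma, adjusted p = 0.0368), a call that 15 of 26 alternatives ended (adjusted p from 0.000756 to 0.689), among them the replicate block in the fit of all groups (0.0564). The second step gave -0.29 and did not pass (limma, adjusted p = 0.413). Il10ra rose by 1.08 ± 0.20 in Tak1-deficient SM&M1 against SM&M1 (SE; 2.11-fold; limma, adjusted p = 0.0156; 0.000219 to 0.987 over 26 alternatives, of which 8 ended the call). Macrophages also express Il10ra. It was at 8.52 in Tak1-deficient replicate 1, which was low in myeloid markers, and at 7.80 and 8.68 in replicates 2 and 3, which were high in them, and the part of such cells in the difference was not tested. Of its other probe sets, 1 gave -0.10 ± 0.72 for the first step and -1.02 ± 0.72 for Tak1 deficiency, with Tak1-deficient replicates at 8.08, 4.81 and 5.41, and the third stayed between 4.19 and 4.57 in all arrays. The mean of the 3 probe sets gave -0.25 for the first step and 0.01 for Tak1 deficiency.

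**Figure D2:**
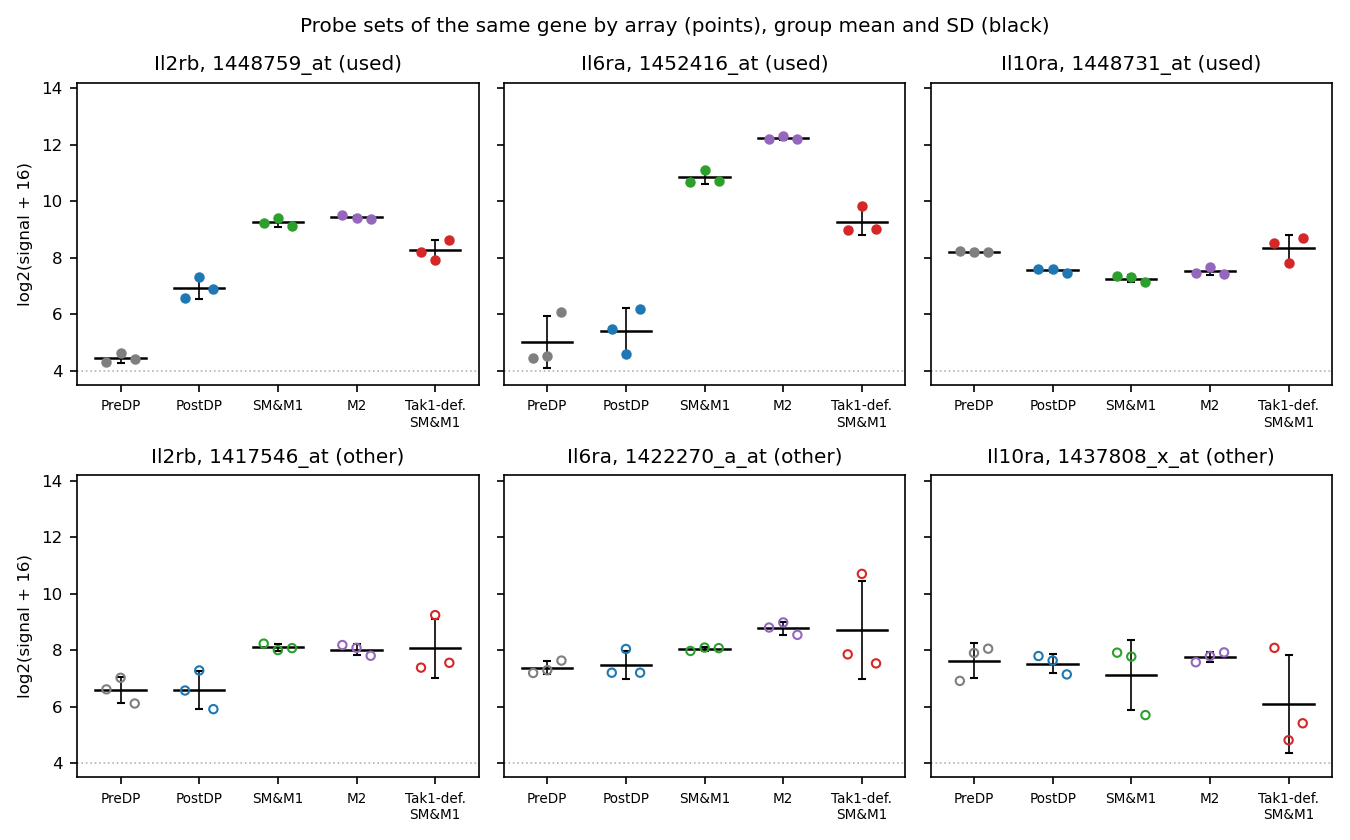
Log2(signal + 16) of 2 probe sets each of Il2rb, Il6ra and Il10ra (columns), the used one above and another below, in the 5 groups; points are arrays and black lines the group mean and SD (n = 3). The lower Il2rb probe set did not separate PreDP from PostDP (6.58 and 6.59). The lower Il6ra probe set spanned 7.37 to 8.77 in its group means. The lower Il10ra probe set had its lowest group mean in the Tak1-deficient cells, where the replicates were at 8.08, 4.81 and 5.41.

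The comparison of PostDP with PreDP concerned the response to positive selection. Il7r, Il2rb and Il6st rose (3 of 9) and Ifngr1, Il10ra and Il21r fell (3 of 9), while Il4ra, Il6ra and Il12rb1 did not pass. Of all genes tested, 14.9% passed, 7.35% higher and 7.57% lower, and the groups did not overlap for 38.7%. The median difference of the 9 was 0.45, against 0.01 over all genes tested. Centring each array on its median moved the median of all genes to -0.13, and then 2 of the 9 rose and 1 fell. With the replicate number as a block in the fit of these groups, 4 rose and 3 fell.

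The comparison of SM&M1 with PostDP concerned the passage to the CD4SP stage. Il6ra, Il7r and Il2rb rose (3 of 9) and Il12rb1, Il6st and Ifngr1 fell (3 of 9), while Il4ra, Il10ra and Il21r did not pass. Of all genes tested, 12.0% passed, 7.84% higher and 4.14% lower, with groups that did not overlap for 40.9%. The median of the 9 was -0.29, against 0.03 over all genes. PostDP is in both of these comparisons, so their differences are given side by side only. Leaving out the 4 arrays high in myeloid markers, a choice made after seeing the data, gave 8 calls at the first step and 7 at the second.

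In M2 against SM&M1, the last step in the thymus, 0 of 9 genes passed in limma (2.33% of all genes tested passed). At an unadjusted p under 0.05 there were 3 of 9, Il6ra, Ifngr1 and Il12rb1, against 10.3% of all genes. In the fit of only these groups 2 passed, Il6ra and Ifngr1. The median of the 9 was 0.18, against -0.01 over all genes. In this comparison the groups did not overlap for 23.6% of all genes tested.

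In Tak1-deficient SM&M1 against SM&M1, Il10ra rose (1 of 9) and Il2rb and Il21r fell (2 of 9), against 1.69% of all genes tested, 0.430% higher and 1.26% lower. Groups did not overlap for 20.3% of all genes. The median of the 9 was -0.07, against 0.05 over all genes. Some markers of maturity differed between the same groups. Of 7 tested double-positive markers, 0 rose and 1 fell (Cd4), with a median difference of 1.30, and their summed signal was 8302 to 13239 in the Tak1-deficient arrays and 7130 to 10408 in SM&M1. Of 7 tested mature CD4 thymocyte markers, 0 rose and 3 fell, with a median difference of -0.26. These 3 were S1pr1 (from a mean of 9.65 to 7.12), Klf2 (from 10.78 to 9.82) and again Cd4 (from 12.22 to 11.3), which is in both lists. Ccr7 (12.95 and 12.75), Zbtb7b (10.93 and 10.89), Cd69 (12.5 and 12.23) and Cd3e (12.95 and 12.99) did not pass. The summed signal of the mature list was 24025 to 29062 against 27124 to 34679. Of 7 tested regulatory T cell markers, 3 fell (Ikzf2, Tnfrsf4 and Tnfrsf18), with summed signals of 12259 to 14040 against 15816 to 22299. The part of these markers in the receptor differences was not tested. SM&M1 is also in the comparison with M2, so the 2 sets of differences share those arrays. In a fit of only these groups 0 of the 9 passed (limma, adjusted p from 0.337 to 0.434 for these 3), where 5 of 11871 genes did. Without SM&M1 replicate 1 the count was 1, and without replicate 2 or replicate 3 of SM&M1 it was 0. Without the 4 arrays high in myeloid markers it was 1, Il10ra, at 1.31 (adjusted p = 0.0192), with a single Tak1-deficient array that was assumed to vary like the other groups. The differences of Il2rb and Il21r there were -1.05 and -0.46.

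**Figure D3:**
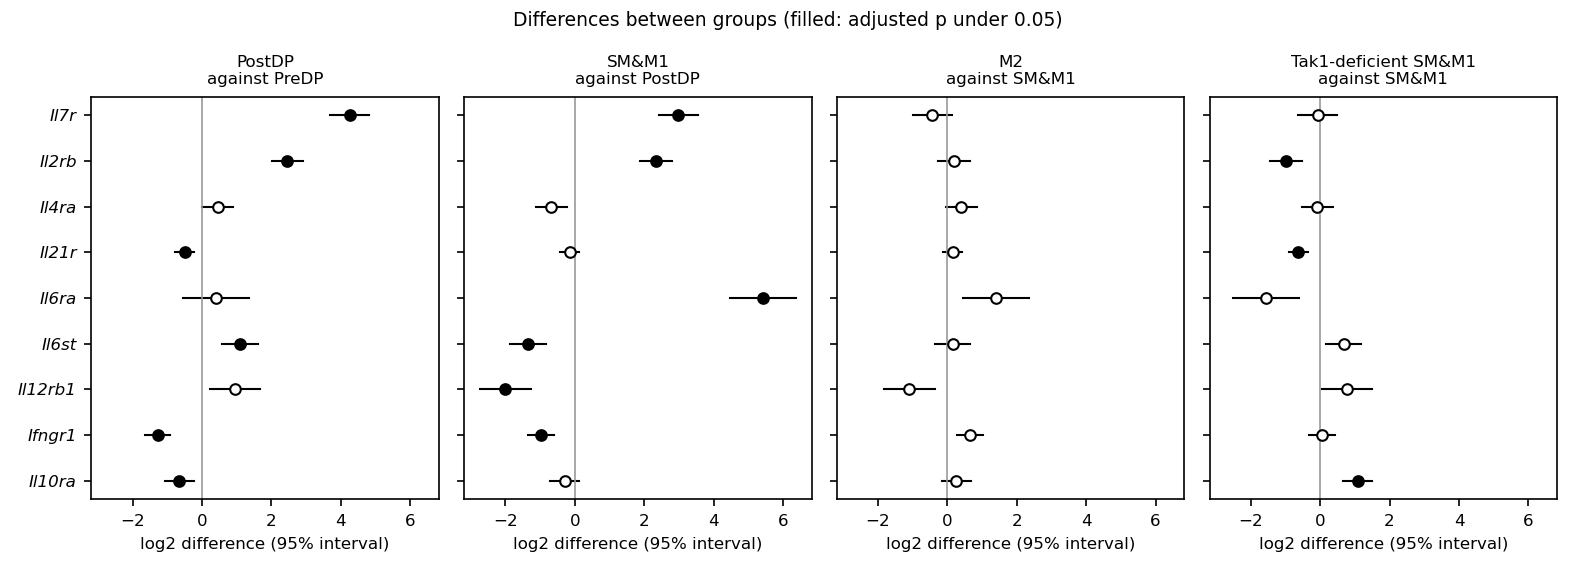
Log2 difference between group means (horizontal axis) of the 9 receptor genes (rows) in the 4 comparisons (panels); points are the differences from limma, bars their 95% intervals, and filled points had an adjusted p under 0.05. The first and second panels hold 6 filled points each, the third 0 and the fourth 3.

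In the order of group means, some neighbours passed the test and others did not. For Il7r the 3 CD4SP groups did not pass against one another, and M2 was above PostDP (2.57; limma, adjusted p = 1.58e-05) as PostDP was above PreDP. For Il2rb only M2 and SM&M1 did not pass as neighbours, and Tak1-deficient cells were above PostDP by 1.34 (limma, adjusted p = 0.00178). For Il6ra the neighbours that passed were Tak1-deficient cells and PostDP, 3.86 apart (limma, adjusted p = 0.000175). For Il21r PreDP was above M2 by 0.48 (limma, adjusted p = 0.0111), and M2, PostDP and SM&M1 followed without passing. For Ifngr1 M2 was above Tak1-deficient SM&M1 by 0.58 (limma, adjusted p = 0.0392), and PostDP against M2 did not pass (adjusted p = 0.218). For Il10ra only PreDP and PostDP passed as neighbours. No neighbours passed for Il4ra, Il6st and Il12rb1, although groups further apart did for each of the 3. Il4ra fell by 0.76 in Tak1-deficient SM&M1 against PostDP (SE 0.21; limma, adjusted p = 0.0327). Il12rb1 was 3.10 lower in M2 than in PostDP on average (-3.10; limma, adjusted p = 2.69e-05).

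Related receptor and kinase genes were counted by list, and each count stands beside the share of all genes tested that passed: 7.35% higher and 7.57% lower at the first step, 7.84% higher and 4.14% lower at the second, 2.33% from SM&M1 to M2, and 0.430% higher and 1.26% lower with Tak1 deficiency. The lists hold few genes, and some of them include receptor genes described above. Of the 7 tested genes of the common gamma chain list, 3 rose and 1 fell from PreDP to PostDP, where Crlf2, the TSLP receptor chain, rose by 1.54 ± 0.24 (limma, adjusted p = 0.000638) beside Il7r, its partner chain. In that list 2 of 7 rose from PostDP to SM&M1, 0 of 7 passed from SM&M1 to M2, and 2 of 7 fell with Tak1 deficiency, all of them genes described above. Of 4 tested gp130 family genes, 2 rose at the first step, and 2 rose and 1 fell at the second. Il27ra, a chain that pairs with gp130 in the IL-27 receptor, rose at both, by 1.07 ± 0.28 (limma, adjusted p = 0.0195) and 1.04 ± 0.28 (adjusted p = 0.0288), whereas Il6st fell at the second. Of 8 tested class II receptor genes, 2 fell at the first step and 1 at the second, and these were Ifngr1 and Il10ra, then Ifngr1. No other gene of the class II list passed in any of the 4 comparisons, and with Tak1 deficiency 1 rose, Il10ra.

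In the IL-12 family list, 2 of 4 rose at the first step, and 1 rose and 2 fell at the second, all named above. In the list of beta common, growth factor and hormone receptors, 2 of 6 tested genes rose at the first step and 0 passed in the other 3 comparisons.

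Of the 4 Janus kinase genes, whose products bind these receptors, 3 rose from PreDP to PostDP, a step at which 7.35% of all genes tested did. The median difference of the 4 was 0.73, against 0.01 over all genes. Jak1 rose by 0.66 ± 0.15 (limma, adjusted p = 0.0100), Jak3, the partner of the common gamma chain, by 0.88 ± 0.22 (adjusted p = 0.0151), and Tyk2 by 0.80 ± 0.18 (adjusted p = 0.00802). Jak3 also rose from PostDP to SM&M1, by 0.77 ± 0.22 (limma, adjusted p = 0.0375). None of the 4 passed in the other comparisons. Of 9 tested IL-1, IL-17 and TGF-beta receptor genes, 2 rose and 2 fell at the first step (7.35% and 7.57% of all genes did) and 1 rose and 1 fell at the second (7.84% and 4.14%). The median difference of the 9 was -0.05 at the first step and 0.25 at the second, against 0.01 and 0.03 over all genes. Il17rb, a chain of the IL-25 receptor, rose by 2.88 ± 0.26 at the first step (limma, adjusted p = 6.55e-06), then fell by 1.30 at the second (adjusted p = 0.00545) and by 1.65 from SM&M1 to M2 (adjusted p = 0.00497). Il17re, the gene of an IL-17 family receptor chain, fell by 1.24 at the first step (SE 0.26; limma, adjusted p = 0.00570). Tgfbr3, a TGF-beta co-receptor gene, fell by 1.23 and then rose by 2.89 ± 0.26 (limma, adjusted p = 0.00501 and 1.15e-05).

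Of 14 ligand genes of these receptors listed, 13 were measured and 1 was tested, Il21, the ligand of the receptor encoded by Il21r. Il21 was at 4.36, 4.87 and 4.42 in PreDP and 4.31, 4.50 and 4.97 in PostDP, and at 8.70, 8.69 and 8.81 in SM&M1. It was at 6.80, 6.26 and 5.81 in M2 and 9.83, 7.74 and 9.72 in the Tak1-deficient cells. Both double-positive groups were near the floor and SM&M1 was high. Il21 rose by 4.14 ± 0.44 from PostDP to SM&M1 (SE; 17.6-fold; limma, adjusted p = 4.91e-05) and fell by 2.44 from SM&M1 to M2 (SE 0.44; 5.44-fold; adjusted p = 0.0121), steps at which Il21r did not pass.

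Of the genes tested outside the list, those with the pattern most like each receptor gene were found by Pearson correlation over the 15 arrays, which share their groups, so the values are descriptive. Chd3 (0.991) and Zbtb7b (0.989), the gene of the CD4 lineage factor ThPOK, were nearest to Il7r, and Adh1 (0.987) and 5830468F06Rik (0.977) to Il6ra. Zbtb7b was at 6.90 to 7.03 in PreDP, 8.76 to 9.69 in PostDP and 10.60 to 11.12 in SM&M1. Nearest to Il2rb were Ctss and Plekha1 (both 0.983), and to Ifngr1 Tec (0.979) and Lyst (0.975). The nearest gene was Nmnat1 for Il12rb1 (0.954) and Lypd6b for Il21r (0.923). Less close were the nearest genes of Il6st (Exosc10, 0.895), Il4ra (Prf1, 0.870) and Il10ra (Dclre1b, 0.840).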

How the data were processed

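Sorted-cell RNA was amplified once, biotinylated and hybridised, per the labels' protocols. The table deposited by the authors holds linear signal intensity of 45101 probe sets on 15 arrays. How it was summarised is not given in the sources used here. The trimmed mean of each array (2% left out at each end) was 500, so arrays shared a scale as deposited. From these, log2(signal + 16) was computed with no further normalization. The platform annotation gave 1 gene for 34945 probe sets and several for 932, which were not used. Of the first, 34741 took a current symbol by Entrez number (RefSeq, GRCm38.p6). For each gene the probe set brightest on average in the 15 arrays was used.

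Groups came from the labels. limma 3.58.1 (R 4.3.3; lmFit, eBayes) was fitted to 11871 genes with 1 mean per group, all 15 arrays and no replicate block, with Benjamini-Hochberg adjustment over all genes tested and calls at an adjusted p under 0.05. Errors are standard errors of the moderated fit, and the number of arrays limits precision. The receptor genes and other lists were chosen with earlier results of these data known. All listed receptor genes are described, and other list genes are named where they passed and changed at least 2-fold (at most the 3 with the largest change per list and comparison), with the Janus kinases named outside that rule after their values were seen. Cell type and maturity markers were also named outside that rule, passing or not, and some that passed changed less than 2-fold (Cd4, Klf2 and Ikzf2 with Tak1 deficiency). The 2 nearest genes of each receptor gene were computed.

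Arrays with the same number deviated from their group means together, with correlations of 0.339, 0.275 and 0.411 between PreDP and PostDP and of 0.553, 0.436 and 0.326 between SM&M1 and M2, so the arrays behaved as pairs by number there. The reported test has no block, so its p-values leave this pairing out. For these comparisons the blocked value is given beside a result whose call it changed. In SM&M1 against PostDP (-0.010 to 0.124) and with Tak1 deficiency (-0.244 to -0.174) the arrays did not behave as pairs. Alternatives were the replicate block, other samples, filters, normalizations and pseudocounts, the mean of probe sets, eBayes with trend, and arrays left out. The scripts were checked in simulated data, where 200 of 11871 genes were given a change. At 2-fold, 42.0%, 49.0%, 42.0% and 42.0% were recovered for the 4 comparisons in the order of the report. At 4-fold the shares were 93.0%, 95.0%, 88.0% and 87.0%. The simulated arrays were independent and had the same spread in all groups. Pairing by number and an array like Tak1-deficient replicate 2 were therefore not in them.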

Additional observations from a re-analysis of the deposited data

How the results depend on the processing

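Of 36 differences (9 genes, 4 comparisons), 15 passed, and 8 of these kept the call in every one of 27 alternatives run (26 for Il10ra, which the filter at the 75th percentile left out). Of 968 values, 879 kept direction and side of the threshold, 57 lost the call, 25 gained it and 7 changed sign. The sign changes were all in differences that did not pass. For Tak1 deficiency, Il7r was at 0.02 with quantile normalization, 0.03 when SM&M1 replicate 3 was left out and 0.02 when Tak1-deficient replicate 2 was. Ifngr1 was at -0.08 with median centring and -0.05 without Tak1-deficient replicate 3, where Il4ra was at 0.11. Il6st was at -0.01 for M2 against SM&M1 without SM&M1 replicate 1. With each array left out, these differences ranged from -0.19 to 0.03 (Il7r), -0.05 to 0.22 (Ifngr1), -0.36 to 0.11 (Il4ra) and -0.01 to 0.36 (Il6st). The cause was not tested.

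The 6 calls of PostDP against PreDP were 3 with median centring and 4 to 7 with each array left out. The 6 calls of SM&M1 against PostDP were 5 to 7 in all alternatives and 6 to 7 with each array left out. The 0 calls of M2 against SM&M1 were 2 in the fit of only these groups and 1 with the filter at the 75th percentile or without the 4 arrays high in myeloid markers. With each array left out they were 0 to 1, the 1 being without M2 replicate 3 or without Tak1-deficient replicate 2. The 3 calls of Tak1 deficiency were 0 in the fit of only these groups, with median centring and without SM&M1 and M2 replicates numbered 1. They were 1 with no filter, with the mean of all probe sets and without the 4 arrays high in myeloid markers, and 0 to 3 with each array left out. With the replicate block in the fit of only the groups compared, the counts in the same order were 7, 7, 1 and 0, and with the block in the fit of all groups 5, 7, 0 and 2. For all genes tested, median centring gave 1218 calls for PostDP against PreDP against 1772. Without Tak1-deficient replicate 2 the calls over all genes were 2992, 2726, 672 and 347 in the same order, against 1772, 1423, 277 and 201. That array is in the last of these comparisons only.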
